A study of Mus musculus with 4 samples.

Results

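The 8 cell cycle genes Rrm2, Uhrf1, Hist1h1b, Top2a, Cenpf, Prc1, Cdc20 and Pttg1 were taken by name from a panel of 328 genes that was measured in mouse dorsal skin and cheek. The assay was Xenium, an imaging method that decodes single RNA molecules in 5 µm tissue sections and assigns them to segmented cells. All 8 members were counted in every cell of the 4 slides. The panel holds 2 further genes tied to growth, Tyms and Ezh2, which were followed beside the members.

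The skin came from TRE-Pitx1/Krt5-rtTA mice, in which doxycycline turns on Pitx1 in cells that use the Krt5 promoter, the basal keratinocytes of epidermis, follicle and gland. PITX1+ mice were given doxycycline and their Control littermates were not. Pitx1 encodes a transcription factor found in oral epithelium. Buccal sections came from Control mice of both sexes. Wounded skin was male and was taken at POD4, day 4 after wounding. The labels gave neither the age nor the strain of the mice.

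The labels also gave the condition of a slide and not of a section, so conditions were set by position on the slide. This gave 3 Control sections (Control 1 and 2 female, Control 3 male), 4 PITX1+ sections (PITX1+ 1 and 2 female, PITX1+ 3 and 4 male), 7 buccal sections, 1 Control wound and 2 PITX1+ wounds. For 14 of the 14 unwounded sections, the study's listed cell total closest to that section belonged to the same condition, at most 4.91% off, whereas totals of other conditions were 8.64% off or more. Slide and sex were the same variable in skin, and tissue and slide could not be told apart between skin and cheek. The study counts the PITX1+ sections as mice and the buccal sections as mucosae, but nothing in the labels says which sections came from separate mice, so p-values measure the spread between sections, which may be partly technical.

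The level of Pitx1 did not follow the assigned condition on the female slide. In keratinocyte-like cells Pitx1 stood at 59.0, 50.1 and 13.97 CPM (counts scaled to an equal total of panel transcripts) in Control 1 to 3, and at 43.8, 78.8, 1066 and 862 CPM in PITX1+ 1 to 4. Both male PITX1+ sections were far above the male Control section, whereas the female PITX1+ sections overlapped the female Control sections. Over all 7 sections the fitted log2 difference was 1.78 (SE 0.98, adjusted p = 0.187, edgeR's quasi-likelihood test). The condition of the female sections thus rests on position and the listed cell totals and not on the level of Pitx1, and the tests that rest on them, other than that of male against female, were also run without the female slide. Hair matrix cells, counted as cells with at least 3 transcripts of Shh, numbered 0, 0 and 0 in the Control sections and 122, 1130, 570 and 528 in the PITX1+ sections. Over all cells Shh was at 251, 156 and 29.5 CPM in Control 1 to 3 and at 453, 1503, 1593 and 1399 CPM in PITX1+ 1 to 4. A cut on transcripts per cell depends on depth, so the counts of 0 do not show that Control skin lacked Shh.

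Depth differed between sections. Control sections held 474847 to 749248 panel transcripts in cells, PITX1+ sections 2832562 to 5581930, buccal sections 136365 to 2368603 and the wounds 1622746 to 5430303. Keratinocyte-like cells held a median of 47, 43 and 25 transcripts in Control 1 to 3 and 72 to 100 in PITX1+ skin, and 124 to 215 in cheek. Slides shared 1 to 7 cell barcodes by pair. Cells were sorted into classes by clusters made without the members, and the classes carried their own markers above the remaining cells, with 35 of 35 keratinocyte markers, 12 of 12 fibroblast markers, 8 of 8 vascular markers and 25 of 35 immune markers higher.

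A dividing cell passes through a phase of DNA copying (S phase) and then, after a gap, through mitosis, and many of the proteins needed are made from RNA that is present only in cells in cycle. Rrm2 encodes a subunit of ribonucleotide reductase, which makes the building blocks of DNA. Uhrf1 carries DNA methylation over to the new strand, and Hist1h1b encodes a linker histone of replicating cells. Top2a untangles sister chromosomes, Cenpf sits on the kinetochore, Prc1 bundles the midzone of the spindle and Cdc20 activates the anaphase promoting complex. Pttg1 encodes securin, which keeps sister chromatids from being parted before anaphase. In skin and cheek, division is a property of the basal layer, which feeds the layers above it, and of the hair matrix during the growth phase of the follicle.

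RefSeq listed a promoter for all 8 genes on GRCm38.p6, with Hist1h1b under its newer symbol H1f5. The windows below run from 100 bases before to 50 bases after the listed start. They are shown because most of them hold a match to either of 2 motifs known from cell cycle promoters. Capitals mark matches to CCAAT, the box bound by NF-Y, and to TTTGAA, the core of the cell cycle genes homology region (CHR), both searched on both strands. Overlapping matches run together.
Rrm2: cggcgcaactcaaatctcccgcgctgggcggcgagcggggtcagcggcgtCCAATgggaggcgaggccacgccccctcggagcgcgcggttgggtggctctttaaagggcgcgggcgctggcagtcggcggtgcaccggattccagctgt
Uhrf1: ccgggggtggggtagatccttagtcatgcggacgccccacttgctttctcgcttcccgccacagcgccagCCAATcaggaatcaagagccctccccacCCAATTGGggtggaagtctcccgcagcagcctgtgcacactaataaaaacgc
Hist1h1b: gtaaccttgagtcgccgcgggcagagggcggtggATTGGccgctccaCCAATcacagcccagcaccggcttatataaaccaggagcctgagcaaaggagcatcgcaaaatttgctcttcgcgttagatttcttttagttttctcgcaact
Top2a: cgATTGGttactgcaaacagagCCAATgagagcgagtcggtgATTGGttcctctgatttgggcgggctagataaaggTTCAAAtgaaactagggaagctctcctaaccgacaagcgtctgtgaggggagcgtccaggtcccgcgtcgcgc
Cenpf: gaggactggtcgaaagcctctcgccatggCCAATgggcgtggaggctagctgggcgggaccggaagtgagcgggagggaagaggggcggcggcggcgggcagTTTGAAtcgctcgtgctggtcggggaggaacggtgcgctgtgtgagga
Prc1: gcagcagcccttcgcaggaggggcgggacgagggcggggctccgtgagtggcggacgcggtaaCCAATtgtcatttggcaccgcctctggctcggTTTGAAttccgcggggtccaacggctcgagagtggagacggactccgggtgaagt
Cdc20: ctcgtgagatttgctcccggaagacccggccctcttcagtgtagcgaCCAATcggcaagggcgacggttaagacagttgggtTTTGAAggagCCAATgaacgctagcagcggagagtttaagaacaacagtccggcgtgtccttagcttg
Pttg1: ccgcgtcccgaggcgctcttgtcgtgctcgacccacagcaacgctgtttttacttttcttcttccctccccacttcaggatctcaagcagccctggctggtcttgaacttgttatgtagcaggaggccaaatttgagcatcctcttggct
CHR matches were found in 4 of the 8 windows, those of Top2a, Cenpf, Prc1 and Cdc20, against 8.08% of 27025 windows of the same length. CCAAT matches were found in 7 of the 8 windows, Pttg1 being the exception, against 24.0% of all windows. Windows with both made up 1.92% of the total. Relative to the listed start, the CHR match began at -23 in Top2a (on the other strand), at 2 in Cenpf, at -5 in Prc1 and at -18 in Cdc20. The windows lie at chr12:24708154-24708303 (Rrm2, plus strand), chr17:56303237-56303386 (Uhrf1, plus), chr13:21780576-21780725 (Hist1h1b, minus), chr11:99024140-99024289 (Top2a, minus), chr1:189688037-189688186 (Cenpf, minus), chr7:80294351-80294500 (Prc1, plus), chr4:118437294-118437443 (Cdc20, minus) and chr11:43425932-43426081 (Pttg1, minus). RefSeq listed 2 starts for Prc1 and Uhrf1, and the start listed for Pttg1 lies well inside its annotated gene, those of Top2a, Cenpf and Prc1 just inside. A match is only a match of letters, and its use in these tissues was not measured.

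Summed over all cells of a section, the members took 8578, 6899 and 7497 CPM in Control 1 to 3 and 6713, 11613, 19588 and 20544 CPM in PITX1+ 1 to 4. Buccal sections held 4871 to 8057 CPM, the Control wound 16082 CPM and the PITX1+ wounds 12256 and 7838 CPM. Both male PITX1+ sections were above every other section, and PITX1+ 1 was below all 3 Control sections. Fewer cells of a type and less RNA per cell cannot be told apart in such sums.

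Relative to their level, Uhrf1 and Hist1h1b had the widest range among skin sections. For Uhrf1 the Control sections stood at 394, 249 and 512 CPM and the PITX1+ sections at 302, 567, 1825 and 2018 CPM. For Hist1h1b the values were 1925, 1322 and 2915 CPM in Control and 1575, 3219, 8025 and 7946 CPM in PITX1+ skin. In both genes the male PITX1+ sections exceeded all Control sections, and PITX1+ 1 lay within the Control range. Top2a was at 2252, 1637 and 1026 CPM in Control sections and at 1931, 3253, 3636 and 3511 CPM in PITX1+ sections, so that again only PITX1+ 1 overlapped the Controls. In cheek, Uhrf1 ran from 121 to 329 CPM and Top2a from 367 to 1392 CPM.

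Prc1, Cenpf, Rrm2 and Cdc20 spread less than Uhrf1 and Hist1h1b relative to their level. Prc1 was at 1328, 1045 and 802 CPM in Control sections and 952, 1431, 2417 and 2724 CPM in PITX1+ sections. Cenpf was at 1184, 814 and 324 CPM in Control sections and 738, 1399, 1235 and 1237 CPM in PITX1+ sections, where Control 1 lay among the PITX1+ values and the male Control section far below them. Rrm2, the reductase subunit, was at 366, 301 and 331 CPM in Control sections and 334, 445, 792 and 795 CPM in PITX1+ sections. Cdc20 was at 624.6, 499 and 495 CPM in Control sections and 451, 694, 907 and 956 CPM in PITX1+ sections. For all 4 genes PITX1+ 1 was again within or below the Control range.

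Pttg1 kept apart from the other members. Its level was 506, 1033 and 1093 CPM in Control sections and 430, 604, 752 and 1357 CPM in PITX1+ sections, with full overlap. In buccal sections it lay between 948 and 2457 CPM. As described below, the muscle of the cheek was high in Pttg1, and so was the muscle of some skin sections.

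**Figure D1:**
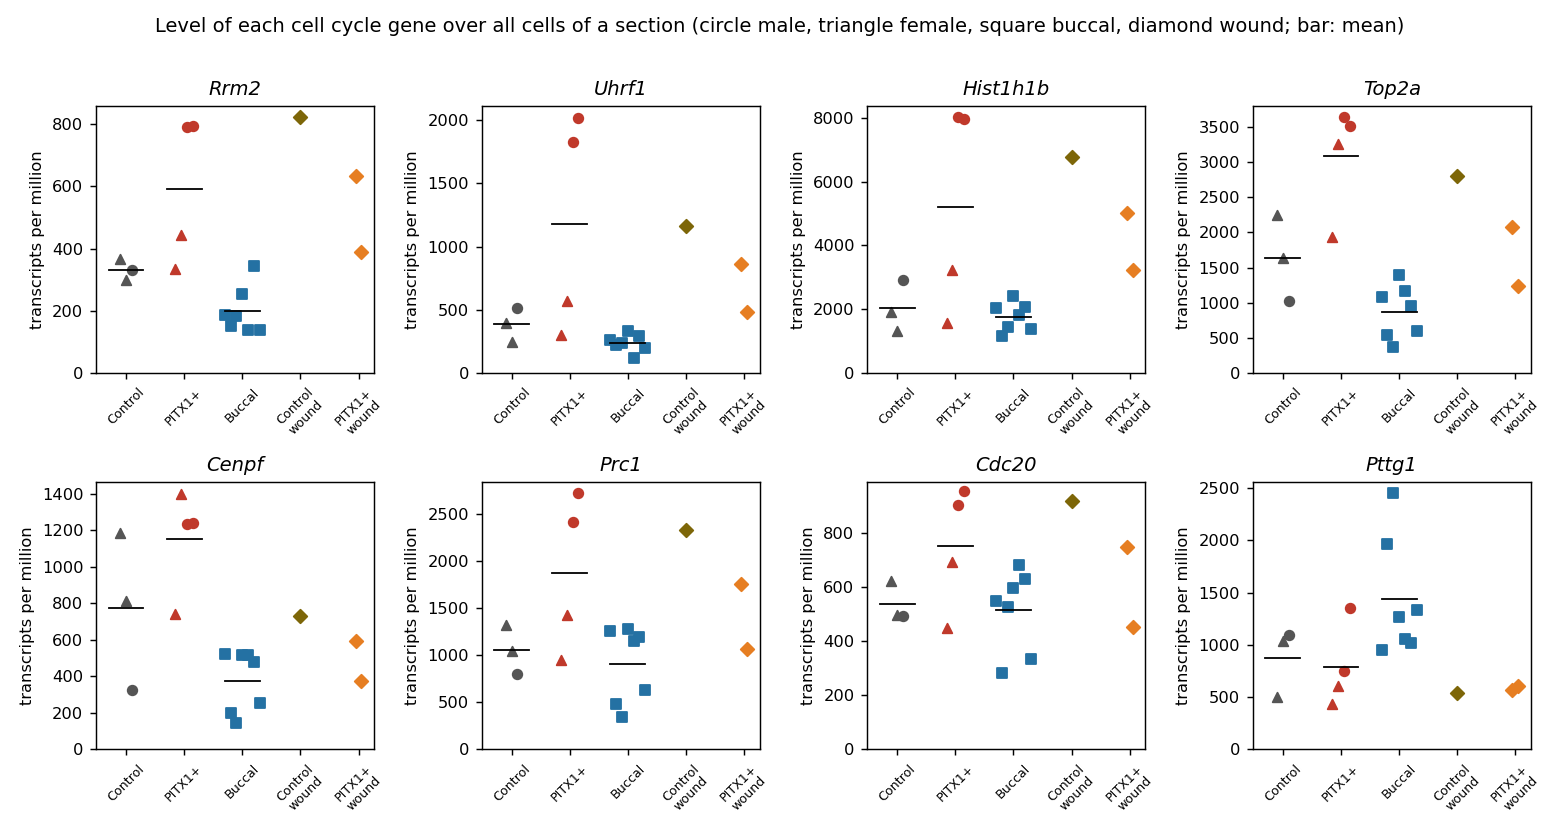
Level of each of the 8 members in CPM over all cells of a section (vertical axis) for Control, PITX1+, buccal and wounded sections, with circles for male, triangles for female, squares for buccal and diamonds for wounded sections and a bar at the group mean. The male PITX1+ sections stand highest among unwounded skin for Uhrf1 (1825 and 2018 CPM) and Hist1h1b (8025 and 7946 CPM). Pttg1 is highest in Buccal 3 (2457 CPM), and PITX1+ 4 (1357 CPM) lies within its buccal range.

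To follow the members cell by cell, a cell with transcripts of at least 2 different members was called cycling, as a working name with no claim on its phase. The share of cycling cells among keratinocyte-like cells was 10.2%, 6.78% and 4.94% in Control 1 to 3, a mean of 7.31% (SD 2.67, n = 3). In PITX1+ 1 to 4 it was 10.7%, 23.0%, 23.1% and 32.6%, a mean of 22.4% (SD 8.99, n = 4). In the 6 buccal sections with at least 100 such cells it was 11.2% to 23.8%, a mean of 18.9% (SD 5.03, n = 6). PITX1+ 1 was close to Control 1, and the other 3 PITX1+ sections lay well above the Controls.

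Cells with more transcripts reach 2 members more easily, so each cell was also thinned to 30 transcripts, and cells with fewer were left out. This kept 4420 of 6120, 3174 of 4675 and 1664 of 4147 keratinocyte-like cells in Control 1 to 3, 19176 of 21787, 28173 of 30888, 17930 of 20850 and 11105 of 11945 in PITX1+ 1 to 4, and 1231 to 4729 cells in the buccal sections. Thinned shares were 3.81% to 5.63% in Control, 4.58% to 16.6% in PITX1+ and 3.74% to 8.61% in buccal keratinocyte-like cells, so that at equal depth both the buccal and the PITX1+ range overlapped the Control range, the latter through PITX1+ 1. As a background, muscle cells led by Des, which should not divide, were called cycling in 0.839% to 1.64% of cells in Control skin (median depth 24 to 37 transcripts) and in 3.46% to 8.59% in cheek (40 to 96 transcripts). In PITX1+ skin the share of these cells was 0.607% to 11.7%, highest in PITX1+ 4 (130 transcripts). In the Control wound it was 11.8% of 102 cells and in PITX1+ wound 2 it was 2.88% of 208 cells. In the cheek muscle, Pttg1 made up 64.9% to 84.0% of all member transcripts, at 4524 to 10827 CPM. Hist1h1b followed at 1049 to 1637 CPM in these cells, above its level over all cells of the section in Buccal 2, 3 and 7. In skin muscle Pttg1 was at 446, 2671 and 3749 CPM in Control 1 to 3. It was at 363, 361, 2600 and 5908 CPM in the muscle of PITX1+ 1 to 4. Without Pttg1 the muscle share fell to 0.156% to 1.05% in cheek and was 0.364% to 2.49% in PITX1+ skin, 9.80% in the Control wound and 0.481% in PITX1+ wound 2. The mean for keratinocyte-like cells changed little, to 6.60% in Control, 21.3% in PITX1+ and 17.9% in buccal sections. Neutrophil-like cells of the wounds, another class that does not divide in tissue, gave 2.53% to 2.95%, and in unwounded skin 0.513% of 195 cells in PITX1+ 1 and 5.99% of 167 cells in PITX1+ 3.

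In the 13 unwounded sections with at least 100 keratinocyte-like cells, these made up most cycling cells, with 52.6% to 78.9% of them in Control, 65.2% to 71.3% in PITX1+ and 54.5% to 83.2% in buccal sections. In Buccal 3, with fewer than 100 of them, 42.5% of cycling cells were mesenchymal-like and 26.4% fibroblast-like. Among the muscle cells led by Des of this section, the cycling share fell from 6.50% to 1.05% without Pttg1. Calls that rest on Pttg1 are counted in all the shares given here. The remaining classes were at low shares in Control skin. Among fibroblast-like cells 0.981% to 1.40% were cycling in Control, 2.82% to 14.5% in PITX1+ and 1.53% to 4.22% in buccal sections. Vascular-like cells gave 0% to 2.02% in Control and 1.93% to 15.5% in PITX1+ skin, and sebaceous-like cells 5.65% to 6.84% and 9.43% to 22.9%. In these 3 classes the PITX1+ ranges reached well above the Control ranges before thinning. At equal depth vascular-like cells were at 1.72% to 2.59% in 2 Control sections and 2.59% to 7.42% in PITX1+ skin, so that the ranges nearly met. Thinned to equal depth, fibroblast-like cells were at 0.813% to 0.990% in Control, 1.84% to 8.57% in PITX1+ and 0.361% to 1.77% in buccal sections, where the last range spans that of Control, so no order was read between cheek and Control. Immune-like cells overlapped between Control (2.30% to 4.17%) and PITX1+ skin (1.87% to 8.80%). Within them, cells named Langerhans or dendritic held 3.95% to 10.5% cycling cells in Control and 7.47% to 16.7% in cheek, and macrophage-like cells 0% to 2.13% in Control and 1.79% to 8.45% in PITX1+ skin. The shares of these kinds are given without thinning, so no order between groups was read from them.

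**Figure D2:**
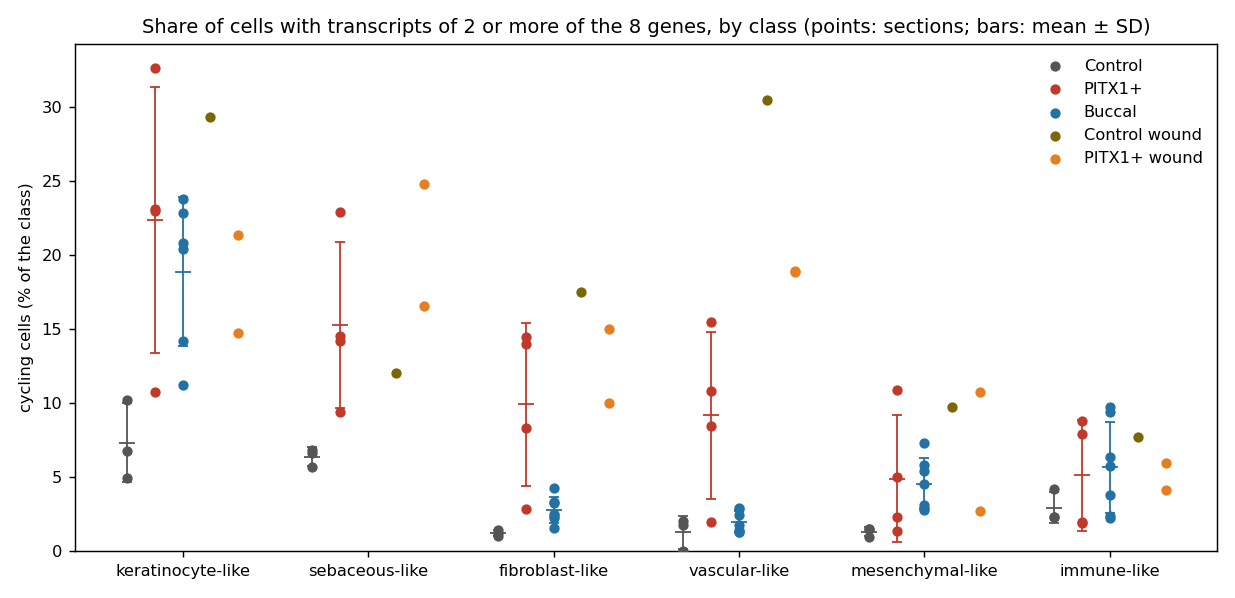
Share of cycling cells (percent of cells with transcripts of at least 2 members) by cell class and group, with a point for each section and the mean ± SD. Keratinocyte-like cells average 7.31% in Control, 22.4% in PITX1+ and 18.9% in buccal sections, and the Control wound is highest among vascular-like cells at 30.5%.

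Clusters of keratinocyte-like cells differed in their share. The clusters with Krt5 and Col17a1 among their leading genes were not the same in the groups and were therefore not compared as 1 class. In Control skin they were mostly a cluster led by Krt15, Wfdc3 and Fcgbp (7087 cells, against 116 in one led by Stfa3, Cstdc5 and Fcgbp), in PITX1+ skin both (3209 and 4917 cells), and in cheek a cluster led by Mt4, Sox2 and Col17a1 (7941 cells). Their median depth was 34, 95 and 115 transcripts per cell. The cluster led by Krt15 also had the follicle genes Lhx2, Sostdc1 and Krt75 among its leading genes. Within it, 3.77% to 9.92% of cells were cycling in Control and 9.68% to 19.9% in PITX1+ skin, with overlapping ranges. In the cluster led by Stfa3 the share was 12.2% to 52.9% in PITX1+ skin, and in that led by Mt4 it was 23.7% to 50.2% in cheek. Differentiated keratinocyte-like cells of cheek, which face the surface, held 1.56% to 6.51%. In the buccal epithelium 71.6% of cycling cells fell in a cluster led by Mt4, Sox2 and Col17a1 that held 37.8% of the cells, and 4.44% fell in a cluster led by Sprr3, Krt78 and Krt4 that held 24.2%. In PITX1+ skin a cluster led by Shh, Dlx3 and Wnt5a, genes of the hair matrix, held 10.9% of keratinocyte-like cells and 19.2% of cycling ones. From 16.3% to 59.1% of its cells were cycling, against 1.90% to 4.02% of a hair shaft cluster led by Dsg4, Krtap17-1 and Lrrc15. In Control skin a cluster led by Krt15, Wfdc3 and Fcgbp had 42.9% of cycling cells for 47.4% of the cells. A cluster led by Krt77, Flg2 and Hrnr, which was also named differentiated, had 41.3% for 32.8%. Median depth over all sections was 34 transcripts per cell in the cluster led by Krt15 and 73 in that led by Krt77, so no order was read between them. The clusters were formed without the members.

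**Figure D3:**
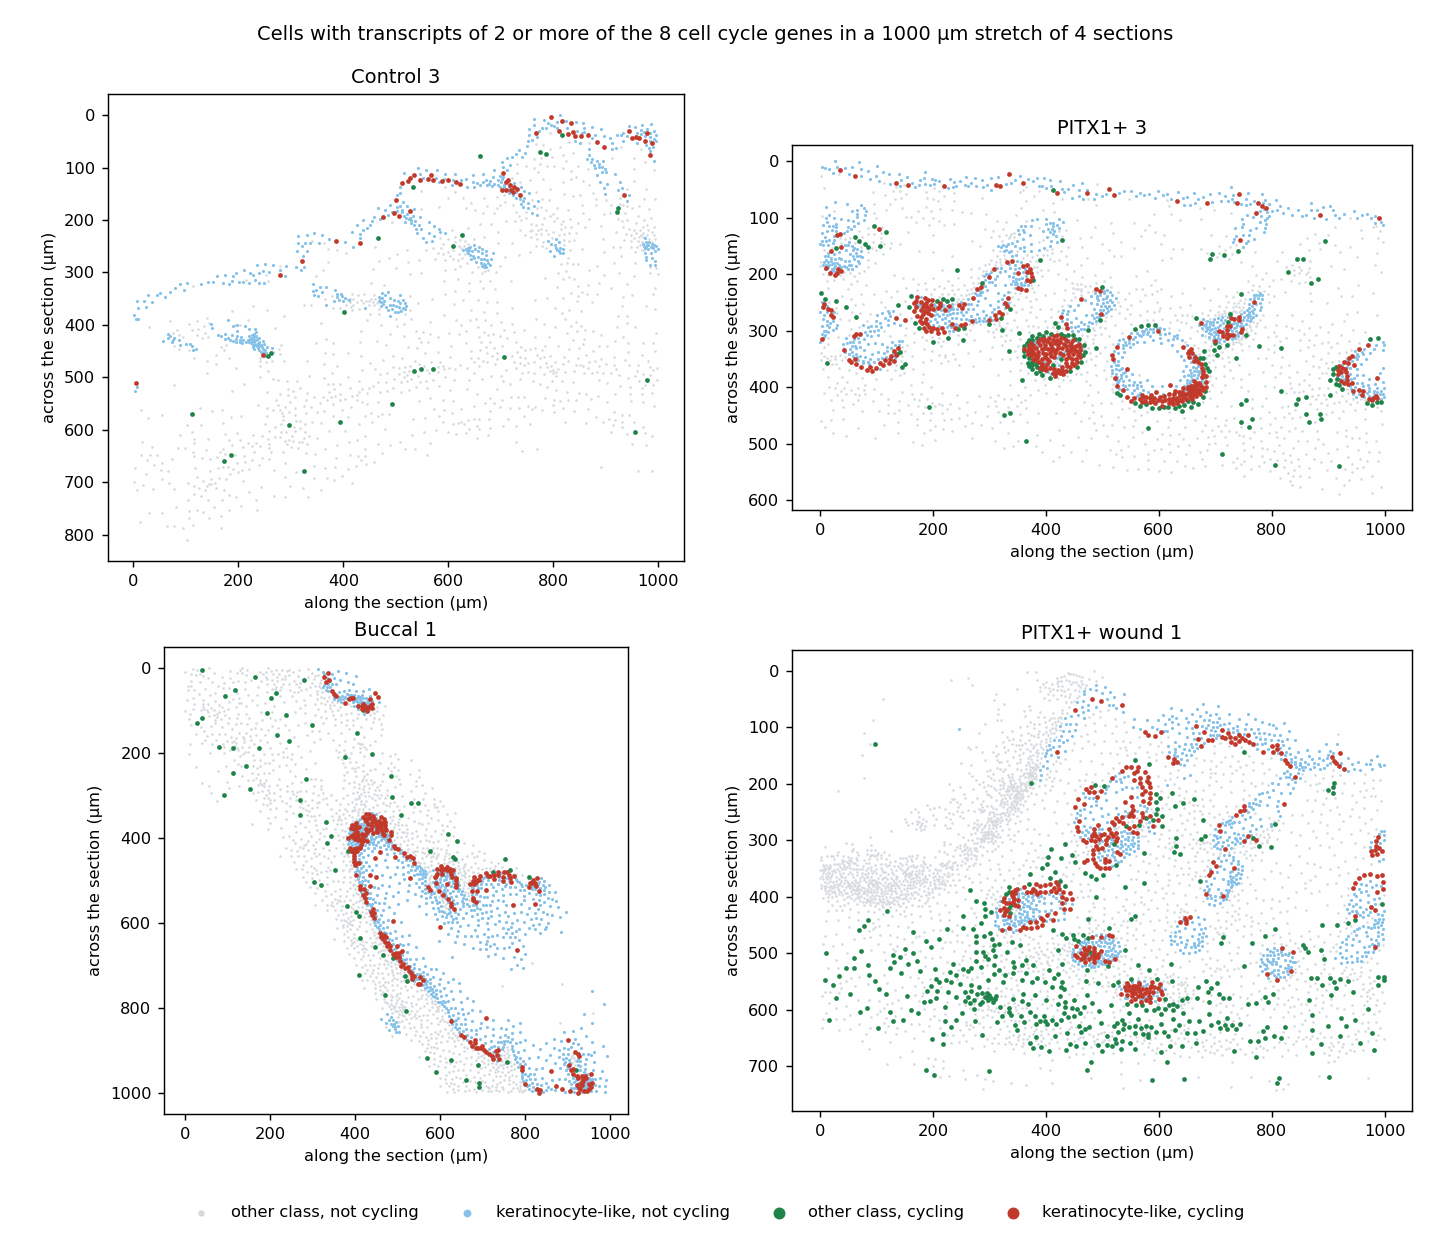
Cell positions in windows of 1000 µm along a Control, a PITX1+, a buccal and a PITX1+ wounded section (axes in µm), with keratinocyte-like cells in light blue, other cells in grey, cycling keratinocyte-like cells in red and other cycling cells in green. Cycling cells number 55 of 541 keratinocyte-like cells in the Control window, 406 of 1348 in the PITX1+ window, 292 of 1194 in the buccal window and 333 of 1241 beside the wound.

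PITX1+ skin was compared with Control skin to ask whether the induced gene went with more RNA of cycling cells. In keratinocyte-like cells 7 of the 8 members had a higher fitted level in PITX1+ sections, but none passed edgeR's test, while DESeq2 called 1, Uhrf1 (log2 difference 1.13, adjusted p = 0.0157). Over all genes tested 32.3% passed edgeR's test in either direction, and DESeq2 called 187 of 328. By edgeR 156 of 328 genes had an unadjusted p under 0.05. The fitted log2 differences had a median of 0.56 over the members and of -0.06 over all genes. Uhrf1 came nearest, at 394, 273 and 712 CPM in Control 1 to 3 and 274, 717, 2278 and 3410 CPM in PITX1+ 1 to 4 (log2 difference 1.17, SE 0.40, adjusted p = 0.0613, edgeR). Its PITX1+ 1 value was at the bottom of the Control range and the male values were far above it. Top2a, the topoisomerase, stood at 3116, 2102 and 1760 CPM in Control and 1921, 4118, 4361 and 5650.3 CPM in PITX1+ skin (log2 difference 0.76, SE 0.33, adjusted p = 0.108, edgeR).

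The lack of a call by edgeR in keratinocyte-like cells depended on the sections used. Without PITX1+ 1, 3 members were higher, where 50 of 328 genes were. Without the female slide 3 members were higher, where 46 of 328 genes were, namely Uhrf1 (log2 difference 1.89, adjusted p = 0.0207), Top2a (1.40, adjusted p = 0.0430) and Cenpf (1.75, adjusted p = 0.0443), all by edgeR and with the single male Control section assumed to vary like the others. The difference between the male and the female slide was itself tested with an interaction term, and no member passed while 4.57% of all genes did. The largest member term was that of Cenpf, at 1.47 on the log2 scale (SE 0.65, adjusted p = 0.255, edgeR). Over all cells no member passed either, with 20.4% of genes called, and the member nearest to the threshold was Top2a (log2 difference 0.84, SE 0.33, adjusted p = 0.104, edgeR). With cells within 50 µm of an Shh cell left out, no member passed and 21.3% of genes did, and Uhrf1 was at 0.82 (SE 0.34, adjusted p = 0.0988, edgeR). Tyms and Ezh2 passed in none of these comparisons by edgeR, whereas DESeq2 called Tyms in the interaction (log2 difference 1.85, adjusted p = 0.0399).

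In fibroblast-like cells 4 of the 8 members were higher in PITX1+ than in Control skin, where 9.76% of all genes were called higher, and the median log2 difference was 1.32 over the members and -0.03 over all genes. Without slide as covariate 0 members and 0 genes passed, and with transcripts over the nucleus 2 members were higher, where 27 of 328 genes were. Hist1h1b stood at 561, 553 and 941 CPM in Control and 1159, 2178, 6799.7 and 4566 CPM in PITX1+ sections (log2 difference 1.76, SE 0.39, adjusted p = 0.0180, edgeR). Every PITX1+ section was above every Control section. For Prc1, the spindle midzone protein, the values were 497, 381 and 387 CPM and 787, 1126, 2349 and 1656 CPM (log2 difference 1.38, SE 0.36, adjusted p = 0.0238, edgeR), and Cenpf went from 381, 272 and 174 CPM to 559, 1146, 1152 and 714 CPM (log2 difference 1.58, SE 0.42, adjusted p = 0.0247, edgeR). The groups did not overlap in either gene, nor in Top2a (log2 difference 1.41, SE 0.38, adjusted p = 0.0252, edgeR). How many of all genes separated the groups was not counted, so this separation, also that of Hist1h1b, is not read as particular to the members. Rrm2 and Uhrf1 had differences of 1.26 and 1.20 and missed the threshold, at adjusted p = 0.0699 and 0.0920 (edgeR). Cdc20 at 0.12 and Pttg1 at -0.57 did not move with the others. Scaling by library size gave 5 members, with 43 of 328 genes higher, and turned the split of calls from 64% to 87.8% higher. The class holds a cluster of 7157 cells led by Gpx3, Des and Ncam1, and without that cluster 4 members were higher as well, where 33 of 328 genes were.

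The fibroblast result moved with place and with a few sections, and the number of all genes called moved too. Summed markers of keratinocytes in the fibroblast-like cells were at 13501 to 24926 CPM in Control and 26279 to 64067 CPM in PITX1+ sections, with 5 of 35 of those markers called higher and 2 lower, and their part in the result was not tested. Among fibroblast-like cells more than 20 µm from any keratinocyte-like cell no member was higher, where 5 of 328 genes were, and more than 100 µm from any Shh cell 1 member was, where 17 of 328 genes were. Cycling shares of fibroblast-like cells within 20 µm of a keratinocyte-like cell were 4.29%, 17.0%, 24.1% and 26.9% in PITX1+ 1 to 4, against 1.63%, 2.68%, 4.84% and 7.57% farther away. In Control 1 to 3 the same shares were 2.35%, 1.69% and 2.16% near and 1.20%, 0.781% and 1.12% away. Leaving out Control 3 left 0 members (23 of 328 genes higher), leaving out PITX1+ 2 left 0 (11 of 328) and leaving out PITX1+ 3 left 1 (23 of 328). Without the female slide 6 members were higher, where 28 of 310 genes were, with Control 3 as the only Control section and assumed to vary like the others.

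In immune-like cells no member passed, and neither did any of the 325 genes tested by edgeR (0.0%), with 53 genes at an unadjusted p under 0.05 and 20 genes called by DESeq2. Uhrf1 had the largest difference there, lower in PITX1+ skin by a log2 value of -0.91 (SE 0.39, adjusted p = 0.282, edgeR).

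Buccal epithelium was compared with skin epithelium, with the slide inseparable from the tissue. Against Control skin, 2 members were higher, where 31.9% of all genes were. Cdc20, the activator of the anaphase promoting complex, stood at 657, 451 and 635 CPM in Control and 318 to 1193 CPM in cheek (log2 difference 1.66, SE 0.38, adjusted p = 0.00252, edgeR), and Prc1 at 1971, 1483 and 1229 CPM in Control and 559 to 2530 CPM in cheek (log2 difference 1.30, SE 0.36, adjusted p = 0.00789, edgeR). Without the female slide, which leaves Control 3 as the only Control section, no member passed (Cdc20 at 1.25, adjusted p = 0.0986, and Prc1 at 1.33, adjusted p = 0.101, edgeR), while 83 of 323 genes were higher. The differences also depend on the scaling, as the raw CPM ranges overlapped. With scaling by library size in place of TMM, the median of all genes moved from -0.21 to -1.57, that of the members from 0.61 to -0.69, 5 members turned to lower values (Cenpf to -0.94, Top2a to -0.72, Uhrf1 to -0.66, Hist1h1b to -0.49 and Prc1 to -0.04), and 2 members were called lower, where 61.0% of all genes were. The split of calls went from 46.2% to 20.6% higher. Ezh2 (log2 difference 0.86, adjusted p = 0.00196) and Tyms (0.71, adjusted p = 0.0444) were higher in cheek by edgeR with TMM.

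Against PITX1+ skin, 1 member was lower in cheek, where 37.0% of all genes were. Uhrf1 stood at 127 to 414 CPM in buccal and 274 to 3410 CPM in PITX1+ keratinocyte-like cells (log2 difference -1.40, SE 0.54, adjusted p = 0.0404, edgeR). The ranges met only through PITX1+ 1. Leaving out a single section gave 0 to 3 members lower, with 0 in 7 of the 10 cases, among them the loss of PITX1+ 3 or PITX1+ 4, while 109 to 134 genes were lower in each case. DESeq2 called 1 member lower, Uhrf1, and 1 higher, Cdc20. Its share over all genes is not given here, the 37.0% being edgeR's, so no result about the members was read from these calls. With library size scaling Cdc20 and Prc1 turned to lower values and 6 members were called lower, where 59.9% of all genes were, and the share of calls that were higher fell from 37.8% to 16.0%.

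Place within the epithelium was then followed inside each section. In Control skin the share of cycling cells within 50 µm of the surface was 14.4%, 9.61% and 7.11% of keratinocyte-like cells, and this zone held 63.9% to 78.4% of all cycling keratinocyte-like cells of a section. In PITX1+ skin the sections differed. PITX1+ 4 had 12.4% near the surface, 48.4% at 150 to 300 µm and 54.1% at 300 to 500 µm, and PITX1+ 3 had 9.41%, 24.0% and 33.3%. PITX1+ 2 had 22.6% near the surface and 30.3% at 500 to 800 µm. PITX1+ 1 had 18.0% near the surface and 7.14% at 300 to 500 µm. The summed members, which do not depend on transcripts per cell in this way, did not give the same order in every section. From 0 to 50 µm and from 50 to 150 µm they were at 12311 and 11120 CPM in Control 1, 8549 and 9306 CPM in Control 2 and 12656 and 11153 CPM in Control 3. In PITX1+ 1 they were at 6690 and 8555 CPM and in PITX1+ 2 at 7145 and 15804 CPM, so the shares near the surface of Control 2, PITX1+ 1 and PITX1+ 2 give no order. In PITX1+ 3 and 4 they were at 10103 and 9216 CPM near the surface and at 28545 and 49504 CPM at 300 to 500 µm, in the order of the shares.

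Cycling cells were more frequent close to Shh cells than far from them. Within 50 µm of an Shh cell their share of keratinocyte-like cells was 15.2%, 29.0%, 37.3% and 53.9% in PITX1+ 1 to 4, against 10.99%, 22.5%, 12.97% and 17.5% beyond 200 µm. Every section was higher within 50 µm than beyond 200 µm, by the widest margin in PITX1+ 3 and 4. At 100 to 200 µm PITX1+ 1 and 2 were at 5.19% and 18.4%, below their shares beyond 200 µm. PITX1+ 3 and 4 were at 20.7% and 22.6% there, above their shares beyond 200 µm, so no order was read from the zones between. The summed members were higher near Shh cells in each section as well, at 15855, 27015, 34824 and 47469 CPM within 50 µm and 6413, 10357, 13513 and 17237 CPM beyond 200 µm. In the near and the away sums of each section, 4 members were higher near Shh cells, where 10.7% of all genes were, with a median log2 difference of 0.90 over the members and -0.21 over all genes. Uhrf1 rose from 245, 496, 1587 and 1972 CPM away to 964, 1705, 3681 and 5580.2 CPM near (log2 difference 1.29, SE 0.22, adjusted p = 0.00765, edgeR with section as block). In each of the 4 sections the near value was the higher one. Cenpf, of the kinetochore, rose from 752, 1307, 1049 and 1252 CPM to 1859, 3598, 2224 and 2997 CPM (log2 difference 0.95, SE 0.25, adjusted p = 0.0381, edgeR).

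Hist1h1b and Top2a also passed near Shh cells, with log2 differences of 0.90 (SE 0.25, adjusted p = 0.0440) and 0.91 (SE 0.26, adjusted p = 0.0486) by edgeR. Prc1, Rrm2 and Cdc20 had differences of 0.92, 0.86 and 0.67 and did not pass. Pttg1 was lowest at 0.25 (adjusted p = 0.477, edgeR). Ezh2 passed at 0.80 (adjusted p = 0.0380) and Tyms, at 0.86, did not (adjusted p = 0.0616, edgeR). Without any 1 of the 4 sections, 1 member was higher, where 16 to 24 of 328 genes were, and without the female slide, which leaves 2 sections, 0 members and 0 genes passed. Scaling by library size gave 7 members, with 67 of 328 genes higher, and turned the split of calls from 43.2% to 65.0% higher.

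Distance from the stroma separated the layers of the cheek. Within 10 µm of the nearest fibroblast-, vascular-, mesenchymal- or neural-like cell, 21.6% to 42.6% of buccal keratinocyte-like cells were cycling, and beyond 40 µm 2.06% to 8.32% were. In the 6 buccal sections 8 of 8 members were higher within 15 µm of the stroma than farther away, where 44.4% of all genes were higher. The median log2 difference was 1.68 over the members and 0.14 over all genes. Uhrf1 stood at 552 to 1392 CPM near and 50.5 to 252 CPM away (log2 difference 2.02, SE 0.15), and Cenpf at 1292 to 3346 CPM near and 106 to 662 CPM away (1.97, SE 0.16). In both genes every near value was above every away value, though how many of all genes did so was not counted. The smallest difference was that of Pttg1, from 120 to 247 CPM away to 578 to 877 CPM near (log2 difference 0.79, SE 0.16, adjusted p = 0.000819, edgeR). All 8 members also passed without any 1 section, where the number of all genes higher is not given here. With library size scaling all 8 passed as well, where 177 of 266 genes were higher. That scaling moved the median of all genes to 1.30 and the split of calls from 52.4% to 75.3% higher. Tyms (1.35) and Ezh2 (0.63) were higher near the stroma too.

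In PITX1+ skin away from Shh cells, 6 members were higher within 15 µm of the stroma than farther away, where 23.2% of all genes were, with medians of 0.92 over the members and -0.12 over all genes. Uhrf1 stood at 145, 264, 783 and 959 CPM away and 520.5, 1289, 2849.7 and 3849 CPM near in PITX1+ 1 to 4 (log2 difference 1.48, SE 0.19, adjusted p = 0.000175, edgeR). Its near value was several times its away value in each section. Cenpf, Top2a, Hist1h1b, Prc1 and Rrm2 followed with log2 differences of 1.08, 1.01, 0.98, 0.86 and 0.85. Cdc20 at 0.56 (adjusted p = 0.0600) and Pttg1 at 0.38 (adjusted p = 0.200) did not pass by edgeR. Leaving out any section left at least 6 members, with 65 to 74 genes higher, and without the female slide 7 members were higher, where 86 of 315 genes were. Library size scaling gave 7 members, with 102 of 328 genes higher, and moved the split of calls from 48.4% to 66.2% higher.

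In PITX1+ skin the cycling share was lower far from the stroma. PITX1+ sections went from 13.1% to 37.4% within 10 µm of the stroma to 6.32% to 7.56% beyond 40 µm. Control sections, which held no Shh cells and so lost no cells to this rule, had 6.67%, 6.14% and 3.02% within 10 µm. Beyond 40 µm they had 12.7%, 10.0% and 4.83%. Their summed members were at 11933, 13532 and 6755 CPM within 10 µm and 10289, 7338 and 11453 CPM beyond 40 µm, against the order of the shares in Control 1 and 2, so no order was read from the Control sections. The difference between the groups in this trend was not tested.

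Members were found together in the same cells more often than their separate frequencies within a cluster and depth range would give. Over the 13 unwounded sections with enough cells, the ratio of observed to expected co-detection had a median above 1 for all 28 pairs. It was highest for Rrm2 with Uhrf1, both S phase genes, at 2.91 (1.78 to 4.37 over 9 sections), and for the mitotic genes Cenpf with Cdc20, at 2.51 (1.73 to 5.02 over 12 sections), and Cenpf with Prc1, at 2.33. Pairs across the phases reached from 1.51 for Uhrf1 with Cenpf to 1.93 for Rrm2 with Top2a where Pttg1 was not one of them, and thus overlapped pairs within a phase such as Uhrf1 with Hist1h1b at 1.82. Hist1h1b with Pttg1 had the lowest median, at 1.22 (0.858 to 1.73 over 13 sections). These are descriptions, as cells of a section share their library.

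The balance of S phase members to mitotic members followed the slide. Rrm2, Uhrf1 and Hist1h1b took 29.0% to 37.2% of the member transcripts in keratinocyte-like cells of the female slide, 53.9% to 54.6% on the male slide, 31.7% to 42.2% in cheek and 50.1% to 54.0% in the wounds. Control 3 and both male PITX1+ sections differed by less than 1 percentage point in this share. The slide, the sex and the wounding cannot be told apart here, so no phase was called.

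Nucleus area is not computed from the members, though whether the call of a cell depends on its nucleus area was not tested. At an equal number of other transcripts, the nuclei of cycling keratinocyte-like cells were larger than those of the rest in 13 of 13 sections, by 7.36% to 34.0% (median 14.5%). The mean log2 ratio was 0.22 (SD 0.09, n = 13 sections), with p = 0.000244 in an exact permutation test that flips the sign of sections (two-sided), the lowest value this test allows. In Buccal 1 the mean areas were 30.6 and 24.1 µm². Matched within each cluster as well, the mean log2 ratio was 0.10, and the p-value above is not that of this match.

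Cycling cells also lay next to each other. In unwounded sections the nearest keratinocyte-like neighbour of a cycling cell was itself cycling in 18.9% to 62.1% of cases, against 3.68% to 15.8% for the neighbour of another keratinocyte-like cell. In each section the first share was the higher one. Within cells the members differed in place, with a median of 66.3% of Uhrf1 transcripts and 62.8% of Rrm2 transcripts lying over the nucleus in the 10 sections with enough counts, above the median of panel genes of the same section in 10 of 10. For Hist1h1b the median was 45.4% over 13 sections, above that of panel genes in 2 of 13.

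Beside the members, the gene most raised in cycling keratinocyte-like cells was Tyms, which makes thymidylate for DNA copying, with a median log2 difference of 2.40 over sections and higher in 13 of 13. Next came Ptn (2.24, higher in 10), Prxl2a (1.83, in 10), the growth factor binding protein gene Igfbp2 (1.66, in 12) and Col17a1, a hemidesmosome collagen of basal cells (1.65, in 10). The most lowered were Arg1 (-2.41, higher in 0 sections), the cornified envelope gene Sprr1a (-1.71, in 1), the protease inhibitor gene Slpi (-1.64, in 2) and the interleukin 1 family genes Il1f6 (-1.60, in 0) and Il1f8 (-1.50, in 2). Across 89 sums of a class in a section, the summed members were most like Tyms (Pearson r = 0.69), then Krt79 (0.69), Ezh2 (0.67), Dsg2 (0.66) and Krt75 (0.64). Set against the other 7 members in the same way, 7 members had r between 0.82 and 0.92, and Pttg1 had r = -0.46. These sums share sections, slides and depth, so the coefficients are descriptions.

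The wounds were 1 Control and 2 PITX1+ sections of male skin and carry no test. The wound was located as the longest stretch along the section with few keratinocyte-like cells, 2750, 2800 and 2700 µm long. The study left the eschar, which held mainly dead or dying cells, out of its Xenium analysis, and here it was not taken out. In the Control wound the gap held 3248 immune-like, 14 fibroblast-like, 6 vascular-like and 2 keratinocyte-like cells. The part of eschar cells in the shares of the wounds was not tested. Cycling cells made up 29.3% of keratinocyte-like cells in the Control wound (exact 95% interval 28.04% to 30.6%) and 21.3% (20.6% to 22.1%) and 14.7% (14.1% to 15.4%) in the PITX1+ wounds. Thinned to equal depth the shares were 13.7% and 6.53% to 8.90%, in the same order. Pitx1 in these cells was at 52.0 CPM in the Control wound and 642 and 328 CPM in the PITX1+ wounds. Keratinocyte-like cells no longer made up most cycling cells of the section, with 45.7% in the Control wound and 33.0% to 46.3% in the PITX1+ wounds.

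Around the few Shh cells of the wounds, 24, 35 and 13 in number, the share was 61.6% (57.3% to 65.8%) in the Control wound and 36.4% (33.1% to 39.7%) and 67.6% (57.7% to 76.6%) in the PITX1+ wounds within 50 µm.

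Fibroblast- and vascular-like cells were high at the wound. Over the whole section 17.5% of fibroblast-like cells were cycling in the Control wound and 9.998% to 14.98% in the PITX1+ wounds, and after thinning 5.96% and 3.33% to 5.82%. In vascular-like cells they were 30.5% and 18.8% to 18.9%, and after thinning 14.8% and 9.30% to 10.8%. Beyond 2000 µm from the wound edge 6.88% of fibroblast-like cells in the Control wound were cycling, against 27.5% at 500 to 1000 µm and 34.1% within 250 µm, the last from 41 cells. In PITX1+ wound 1 the share was 44.7% (39.5% to 49.9%) inside the gap, 40.4% within 250 µm and 10.7% beyond 2000 µm, and in PITX1+ wound 2 it was 19.5%, 16.8% and 7.48%. Vascular-like cells of the Control wound reached 48.8% (37.7% to 59.96%) at 250 to 500 µm and 14.4% beyond 2000 µm, and those of PITX1+ wound 1 went from 49.1% within 250 µm to 11.4%. Those of PITX1+ wound 2 were at 24.7% within 250 µm, 19.9% to 22.1% from 250 to 2000 µm and 13.9% beyond, and their summed members were highest outside the gap at 1000 to 2000 µm, at 22709 CPM against 18478 CPM within 250 µm. In all 3 wounds the share of both classes was lower beyond 2000 µm than within 250 µm of the edge, although only 13 vascular-like cells of the Control wound lay within 250 µm.

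In the Control wound keratinocyte-like cells were at 27.8% within 250 µm, 38.5% at 250 to 500 µm, 29.5% to 29.7% from 500 to 2000 µm and 22.3% beyond 2000 µm. Their summed members were lowest within 250 µm (10118 CPM) and highest at 1000 to 2000 µm (30042 CPM), with 18741 CPM beyond, so no order by distance was read there. In the PITX1+ wounds they were at 34.3% and 29.0% within 250 µm and 19.1% and 13.95% beyond 2000 µm. Immune-like cells were at 2.52%, 4.90% and 2.14% inside the gap of the 3 wounds, beside 2.53% to 2.95% of neutrophil-like cells. Their highest shares lay outside the gap, at 16.9% in the Control wound (500 to 1000 µm), 10.5% in PITX1+ wound 1 (250 to 500 µm) and 7.45% in PITX1+ wound 2 (within 250 µm).

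**Figure D4:**
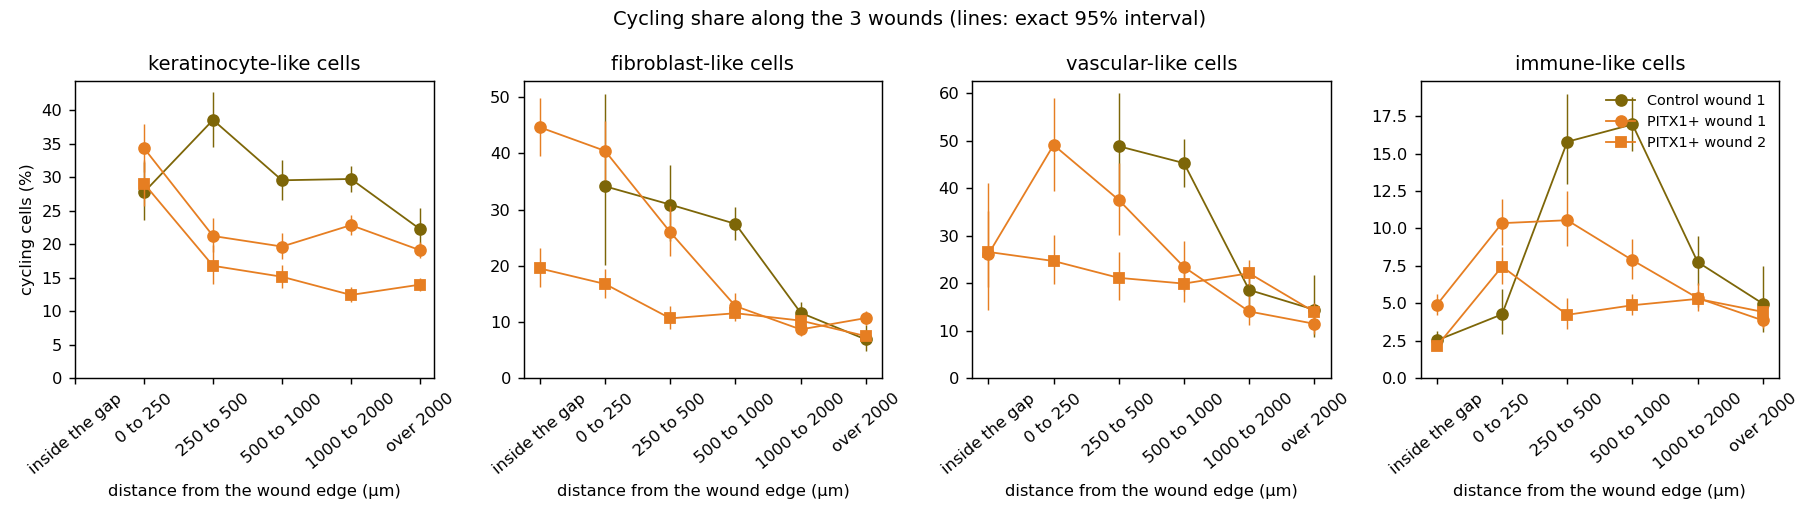
Share of cycling cells (percent) among keratinocyte-, fibroblast-, vascular- and immune-like cells by distance along the section from the wound edge (µm), with a line for each of the 3 wounds and exact 95% binomial intervals. In PITX1+ wound 1 fibroblast-like cells are at 40.4% within 250 µm and 10.7% beyond 2000 µm and vascular-like cells at 49.1% and 11.4%, with zones between that do not fall at every step.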

How the data were processed

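Xenium in situ data of 4 slides were used: male and female unwounded dorsal skin, buccal mucosa, and male wounded dorsal skin. The deposited cells tables hold raw counts, per cell, of transcripts and of control calls. In the deposited transcripts tables the instrument gives each decoded transcript a quality score, a position in µm and a mark for lying over the nucleus. Software version and segmentation are not given in the sources used here. Cell and nucleus outlines were not used. Control calls made up 0.0375% to 0.0981% of calls, and per-cell counts rebuilt from transcripts of quality at least 20 equalled the deposited counts in 100% of cells.

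Cells within 100 µm of each other (200 µm on the wounded slide) were joined into sections of at least 2000 cells and ordered by position. The first section of a 3-section skin slide and the first 2 of the 4-section slide were taken as Control. Cells with at least 10 transcripts were scaled, put on a log scale and sorted by k-means (45 clusters, 40 principal components, scikit-learn 1.9.0), leaving out 11 genes (the members, Tyms, Ezh2 and Pitx1). Clusters were named from marker lists, with at least 3 markers at 1.5-fold in 10% of cells, and carry the ending -like. No doublets were removed. Stroma means fibroblast-, vascular-, mesenchymal- and neural-like cells.

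Counts were summed per section and class and tested by quasi-likelihood in edgeR 4.0.16 (R 4.3.3) after filterByExpr and TMM scaling, with Benjamini-Hochberg adjustment over all panel genes tested and a threshold of 0.05, and with slide as covariate between skin groups and section as block within sections. All 8 members passed the filter in every comparison. SE is the log2 difference over the square root of F. DESeq2 1.42.0 was an alternative. On simulated data with 4-fold changes, 200 of 200 changed genes were recovered in the keratinocyte and fibroblast comparisons (2 and 1 of 128 unchanged genes called), and 166 of 166 in the buccal stroma comparison (19 of 94 unchanged called). These counts were drawn with a fixed spread not taken from the sections and with no slide effect. The recovery therefore does not measure power for the differences tested here. Intervals are exact binomial at 95% and cover counting error only. Named genes were the members, Tyms, Ezh2, Pitx1, the 5 genes most correlated with the summed members, and the 5 genes highest and the 5 lowest in cycling cells. Other genes in the text are cluster leaders and the Shh mark. Depth below the skin surface was measured from the outermost keratinocyte-like cells in steps of 50 µm. The members and lists were chosen with earlier results of these data known.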

Additional observations from a re-analysis of the deposited data

Results flagged for a closer look

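A sample far from the others of its group was looked for in 50 groups of 4 to 7 sections, of which chance alone marks about 1 in 20 (5%), and 2 values stood apart. Pttg1 in keratinocyte-like cells of PITX1+ skin was at 401 CPM in PITX1+ 1, below 659 to 708 CPM in the other PITX1+ sections. The summed members in vascular-like cells of cheek were at 5416 CPM in Buccal 2, above 3174 to 3815 CPM in the other buccal sections.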

How the results depend on the processing

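No paired analysis was possible because, for pairs by the replicate number of the labels, each slide carries only number 1 and the groups share fewer than 2 numbers. Skin groups were compared with slide as covariate, and places within sections with the section as block. The settings named as distances of fibroblast-like cells, as 7 genes without Pttg1, as matching within clusters, as fibroblast-like cells without the cluster led by Gpx3, Des and Ncam1 and as leaving out the female slide were chosen after seeing the data. Of the log2 differences of single members, 850 kept direction and side of the threshold under the other settings, 38 came to pass, 30 no longer passed and 34 turned direction, none of them with an adjusted p under the threshold after the turn. Away from Shh cells, these were Prc1 to -0.050 and Rrm2 to -0.11 with library size, Pttg1 to 0.0061 at any quality, Rrm2 to -0.013 with at least 20 transcripts per cell, Rrm2 to -0.059 without the female slide. In immune-like cells, these were Hist1h1b to 0.019 and Prc1 to 0.024 with library size, Top2a to -0.11 with DESeq2, Top2a to -0.051 with no filter, Prc1 to 0.032 and Top2a to -0.12 at any quality, Top2a to -0.0046 with 60 clusters, Hist1h1b to 0.39 and Prc1 to 0.15 without slide, Cdc20 to 0.28 and Prc1 to 0.12 without the female slide. In fibroblast-like cells, these were Cdc20 to -0.017 with DESeq2, Cdc20 to -0.076 with 30 clusters, Cdc20 to -0.36 beyond 20 µm from keratinocyte-like cells, Cdc20 to -0.13 beyond 100 µm from Shh cells. In cheek against Control, these were Cenpf to -0.94, Hist1h1b to -0.49, Prc1 to -0.036, Top2a to -0.72 and Uhrf1 to -0.66 with library size, Rrm2 to 0.30 at any quality, Uhrf1 to -0.27 without the female slide. In cheek against PITX1+ skin, these were Cdc20 to -0.37 and Prc1 to -0.65 with library size, Cenpf to 0.14 over the nucleus, Prc1 to -0.22 without the female slide. Near Shh cells, this was Pttg1 to -0.063 with at least 1 Shh transcript. In the interaction, these were Pttg1 to 0.12 with library size, Rrm2 to -0.093 with at least 20 transcripts per cell. Leaving out single sections turned the log2 difference of 16 values, none past the threshold in the turned direction, which ran as Cdc20 -0.16 to 0.30 and Pttg1 -0.87 to 0.17 in fibroblast-like cells, Cdc20 -0.35 to 0.88, Hist1h1b -0.16 to 1.39, Pttg1 -0.87 to 0.12 and Rrm2 -0.29 to 0.68 in the interaction, Cenpf -0.088 to 0.66, Prc1 -0.055 to 0.43 and Rrm2 -0.12 to 0.23 away from Shh cells, Hist1h1b -0.17 to 0.062, Prc1 -0.15 to 0.15, Rrm2 -0.034 to 0.40 and Top2a -0.34 to 0.22 in immune-like cells, Prc1 -0.058 to 0.70 in keratinocyte-like cells, Pttg1 -0.36 to 0.10 and Rrm2 -0.36 to 0.33 in cheek against Control. The cause was not tested. Members called in keratinocyte-like cells, PITX1+ against Control, were 0, but 1 with DESeq2, 1 with transcripts of any quality and 3 without the female slide. In fibroblast-like cells 4 were called, but 2 with transcripts over the nucleus, 2 with 30 clusters, 0 without slide as covariate, 0 more than 20 µm from keratinocyte-like cells and 1 more than 100 µm from Shh cells. Cheek against Control skin gave 2 higher, but 2 lower with library size and 0 without the female slide. Cheek against PITX1+ skin gave 1 lower, but 6 lower with library size, 1 lower and 1 higher (2 in all) with DESeq2, 0 over the nucleus and 4 lower without the female slide. For DESeq2, the nucleus and the loss of the female slide, the number of all genes called is not given here. Those counts are therefore not read as a result about the members. Near Shh cells 4 were called, but 7 with library size, 7 with DESeq2, 1 with a distance of 100 µm, 0 with at least 1 Shh transcript and 0 without the female slide. Leaving out single sections gave 0 to 3 members in keratinocyte-like cells and over all cells, 0 to 1 away from Shh cells, 0 to 0 in immune-like cells and in the interaction (which could not be fitted without Control 3), 0 to 6 in fibroblast-like cells, 2 to 4 in cheek against Control (4 without Control 3), 0 to 3 in cheek against PITX1+ skin, 1 to 1 near Shh cells, 8 to 8 in the buccal layers and 6 to 7 in the PITX1+ layers. Where the number of all genes called is not given for a setting, its count of members is not read as a result. Mean cycling shares without single sections were 5.86% to 8.49% in Control, 18.9% to 26.2% in PITX1+ and 17.9% to 20.4% in buccal epithelium. The nucleus log2 ratio was then 0.20 to 0.23. With at least 1 member transcript the shares were 24.3%, 42.3% and 43.0%, thinned to 30 transcripts 4.51%, 11.2% and 6.72%, and with at least 3 transcripts 4.64% in Control. Genes called differed by over 1.5 times in keratinocyte-like cells (106, against 187 with DESeq2, 36 without slide and 63 without the female slide), over all cells (67, against 8 and 0 for the latter settings), away from Shh cells (70, against 136 with DESeq2, 134 at any quality, 8 and 0), in immune-like cells (0, against 11 with library size, 20 with DESeq2, 4 over the nucleus, 2 with at least 20 transcripts per cell and 5 with 30 clusters), in fibroblast-like cells (50, against 33 with 30 clusters, 0 without slide, 6 and 21 by distance), near Shh cells (81, against 139 with DESeq2, 42 with at least 1 Shh transcript and 0 without the female slide) and in the interaction (15, against 34 with DESeq2 and 8 at any quality). Over all cells library size moved the split of calls from 50.7% to 63.5% higher, away from Shh cells from 57.1% to 32.9%, and in the interaction from 26.7% to 57.1%. Keratinocyte-like cells held fewer transcripts in Control than in PITX1+ and buccal sections, which limits what their shares can show.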
